A study of Homo sapiens with 6 samples.

Results

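The retinoid receptors and the nuclear factors tied to retinoid signalling were followed in aggregates of human induced pluripotent stem cells (iPSCs). The group was set by name and held 10 of the 19977 genes counted: the retinoic acid receptors RARA, RARB and RARG, the retinoid X receptors RXRA, RXRB and RXRG, the orphan receptors NR2F1 and NR2F2, the receptor corepressor NRIP1 and the retinol transporter STRA6. The cells were NCRM-1, a human iPSC line of wild-type genotype, seeded as single cells in vertical wheel bioreactors and grown for 4 days, with 50% of the medium replaced on day 2. In 3 libraries the cells had grown in E8, a defined medium for pluripotent cells, that held polyethylene glycol at 10 mg/ml and heparin sodium salt at 0.1 µg/ml (PEG and HS). In the other 3 they had grown in E8 without these additives (E8 control). The comparison asked whether the additives, meant to keep aggregates stable, left gene expression of the pluripotent cells as it was in E8. The treatment text of the labels describes the additives for all 6 libraries, whereas the treatment field calls 3 of them control, and the treatment field was followed. From the labels, each medium seems to have had 1 bioreactor, so the vessel cannot be told apart from the medium. SDs and p-values then describe the spread between these samples, which may be technical.

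Retinoids reach the genome through pairs of nuclear receptors. A RAR binds all-trans retinoic acid and sits on DNA together with a RXR, which also pairs with thyroid hormone, vitamin D, PPAR and LXR receptors. Without ligand the pair holds corepressors at its targets, and with ligand it exchanges them for coactivators. Classical binding elements are direct repeats of a short core motif, and genes that hold such repeats near their start, among them RARB and the retinoic acid hydroxylase CYP26A1, are known to be induced by retinoic acid. In pluripotent cells retinoic acid is a strong signal to leave the pluripotent state, and NR2F1 and NR2F2 are known to rise as neural and mesodermal cells form.

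Of the 10 genes, RARG, RXRA and NR2F2 were lower in PEG and HS, whereas RARA was higher. RARG, the most abundant RAR of these cells, fell 1.39-fold, RXRA fell 1.14-fold and the scarce NR2F2 fell 2.01-fold, while RARA rose 1.12-fold. Over 16 alternative settings the call held in 16 for RARG, 15 for RXRA, 11 for NR2F2 and 9 for RARA. The NR2F2 libraries of the media overlapped. RXRB stood at 30.01 and 30.05 CPM (counts scaled to library size) in PEG and HS and in E8 control. RARB, NR2F1, NRIP1 and STRA6 did not pass the test, and RXRG was too scarce to be tested.

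A start of RARB is shown because it was the only start among the 10 genes at which a direct repeat of the core motif lay within the window searched. RefSeq promoter windows on GRCh38.p14, which reach from 250 bases before to 50 bases after a transcription start, were found for 10 of 10 genes and numbered 25. They were searched on both strands for the core motif AGGTCA, for its close variant GGGTCA, likewise for AGTTCA and for the related form GGTTCA, and for direct repeats of any of these motifs with 1, 2 or 5 bases between them. A repeat with 5 bases between its motifs lay in 1 of the 25 windows, against 31 of all 35116 windows (0.0883%). RARB had 4 windows, and its others held no such repeat. Counts per gene do not tell from which of these starts the RARB reads came. Repeats with 1 or 2 bases between the motifs lay in 0 of the 25 windows and in 46 (0.131%) and 14 (0.0399%) of all windows. A single core motif was common, in 12 of the 25 windows and in 38.6% of all windows, and each direct repeat holds 2 of them. Among 118 other genes listed here with a window, 1 of 231 windows held a direct repeat, at CYP26A1, and it is shown beside RARB because CYP26A1 had the largest decrease among the retinoid genes listed. Each stretch below is 120 bases of the plus strand of its chromosome, written 5′ to 3′, and the capitals mark the core motifs of the repeat. The RARB stretch is chr3:25428143-25428262, with the repeat at positions −53 to −37 relative to the start. The CYP26A1 stretch is chr10:93073773-93073892, with the repeat at positions −90 to −74 and read on the other strand.
RARB: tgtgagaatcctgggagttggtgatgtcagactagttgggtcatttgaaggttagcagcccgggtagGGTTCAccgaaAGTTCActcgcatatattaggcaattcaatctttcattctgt
CYP26A1: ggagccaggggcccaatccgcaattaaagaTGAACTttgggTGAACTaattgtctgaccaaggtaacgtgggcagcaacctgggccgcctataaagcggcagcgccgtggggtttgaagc
These letters describe the sequence and do not show that a receptor was bound in these cells. A window without a match says only that the letters searched are not in it.

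The libraries held 26991279 to 36185138 counts on genes, so 3 counts were worth 0.0829 to 0.111 CPM. Of all genes, 16505 had at least 10 counts in total and were tested together by edgeR (quasi-likelihood test, Benjamini-Hochberg adjusted p). At an adjusted p under 0.05, 4173 genes (25.3%) were called, of which those higher in PEG and HS made up 12.2% of the genes tested and those lower 13.1%. In 39.3% of the genes tested the values of the 2 media did not overlap. Pluripotency genes were abundant in both media, with 8 genes from POU5F1 to PODXL summing to 8995 to 9185 CPM in PEG and HS, against 9312 to 9439 CPM in E8 control. Within that sum 3 were called higher, among them NANOG (185 against 126 CPM), and 3 lower, among them SOX2 (273 against 412 CPM). SOX17 (2 counts over all libraries), CDX2 (3 counts) and GATA4 stayed under the filter. Other markers of their lists passed it, so that 4 of 6 endoderm and 6 of 7 trophectoderm and amnion markers were tested. The 7 neuroectoderm markers, from PAX6 to NES, were each called lower in PEG and HS, with a summed level of 563 to 601 CPM against 760 to 788 CPM. NES made up most of that sum in both media, and the median log2 fold change of the 7 was −1.35. Fewer cells of a type and less RNA per cell cannot be told apart in bulk RNA.

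Of the 9 retinoid receptor and cofactor genes tested, 4 were called (44.4%, against 25.3% of all genes tested), 1 of them higher and 3 lower. In 4 of the 9 (RARA, RARG, RXRA and NRIP1) the values of the 2 media did not overlap, against 39.3% of all genes tested. Their median log2 fold change was −0.12, with 6 of 9 below 0, while the median over all genes tested was 0.0031 with quartiles of −0.13 and 0.11. The summed level of the 10 genes was 194 to 201 CPM in PEG and HS, against 216 to 228 CPM in E8 control.

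**Figure D1:**
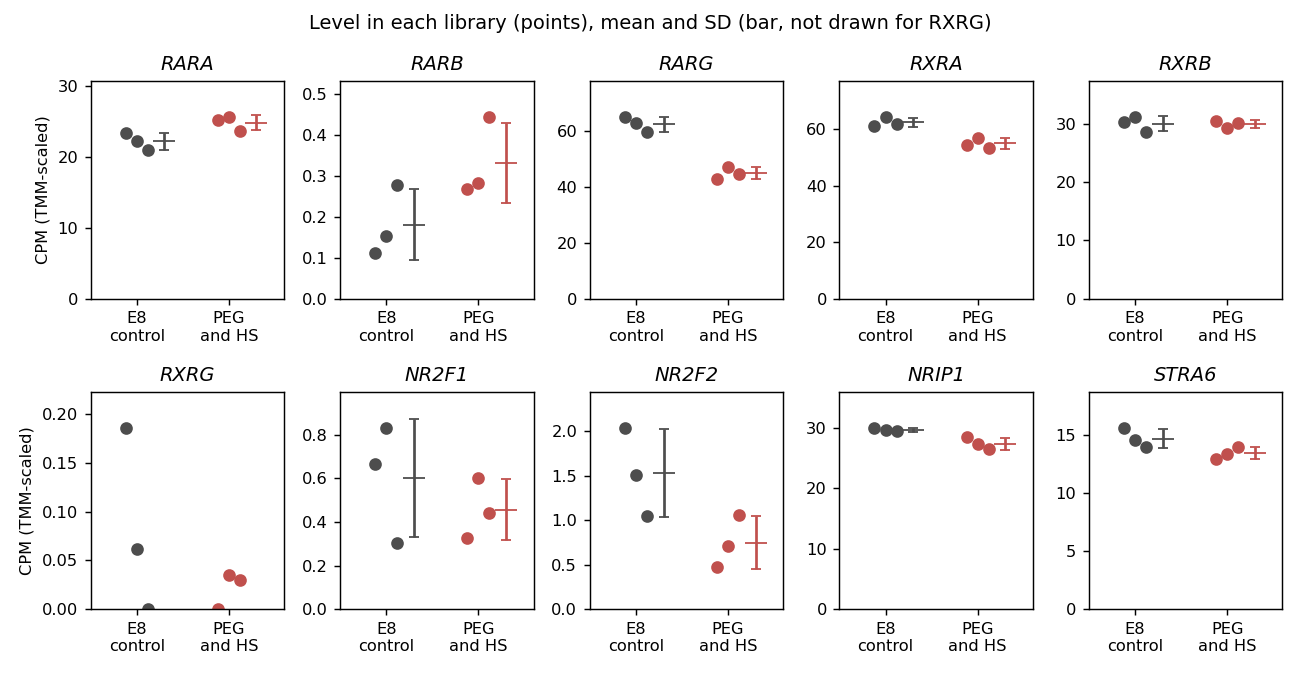
Level of each gene in CPM (vertical axes, each from 0 with its own scale) in the 3 E8 control (grey) and 3 PEG and HS (red) libraries; points are libraries and the bar beside them is the mean with its SD, which is not drawn for RXRG. All RARG points of PEG and HS, at 42.7 to 47.2 CPM, lie under those of E8 control, at 59.6 to 64.8 CPM, whereas the RXRB points of the media overlap, at 28.7 to 31.1 CPM.

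RARG (ENSG00000172819, GRCh38 chr12:53210567-53232980, minus strand) encodes the RAR known to prevail in undifferentiated pluripotent cells. Its level was 42.7, 47.2 and 44.7 CPM in the PEG and HS libraries and 64.8, 62.7 and 59.6 CPM in E8 control. Each PEG and HS library was lower than each E8 control library, and the gap between the media was wider than the range within either. The means were 44.9 ± 2.23 CPM (SD, n = 3) and 62.4 ± 2.64 CPM (SD, n = 3). The log2 fold change was −0.47 (SE 0.044, 95% interval −0.57 to −0.38), with an adjusted p of 1.06e-06 in edgeR's quasi-likelihood test. RARG was called under each of 16 alternative settings, at log2 fold changes of −0.51 to −0.44.

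RARA (ENSG00000131759, chr17:40309180-40357643, plus strand), the broadly expressed RAR, moved the other way. It stood at 25.2, 25.6 and 23.6 CPM in PEG and HS, against 23.4, 22.2 and 21.0 CPM in E8 control. The media did not overlap, but the lowest PEG and HS library and the highest E8 control library lay close together. Means were 24.8 ± 1.04 and 22.2 ± 1.22 CPM (SD, n = 3 each), a log2 fold change of 0.16 (SE 0.056, 95% interval 0.045 to 0.28). The adjusted p in edgeR's test was 0.0431. The call was lost with DESeq2 (adjusted p = 0.102), with upper-quartile scaling (0.0572), against a 1.2-fold change and without PEG and HS replicate 1 (0.132), PEG and HS replicate 2 (0.128), E8 control replicate 2 (0.0874) or E8 control replicate 3 (0.164), each in a fit across all genes. Its gene body overlaps RARA-AS1 on the opposite strand by 2270 bases, and whether the counting used strand is not stated, so reads from that stretch cannot be told apart.

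RARB (ENSG00000077092, chr3:24687887-25597932, plus strand), itself a classical target of retinoic acid receptors, was near the limit of detection in both media. It had 9, 8 and 15 counts in PEG and HS, against 3, 5 and 10 counts in E8 control. These are 0.267, 0.283 and 0.443 CPM against 0.111, 0.154 and 0.277 CPM, so the highest E8 control library lay within the PEG and HS range. The log2 fold change was 0.83 (SE 0.49, 95% interval −0.23 to 1.88), with an adjusted p of 0.255 in edgeR's test, and the interval runs from a decrease to a 3.68-fold increase.

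**Figure D2:**
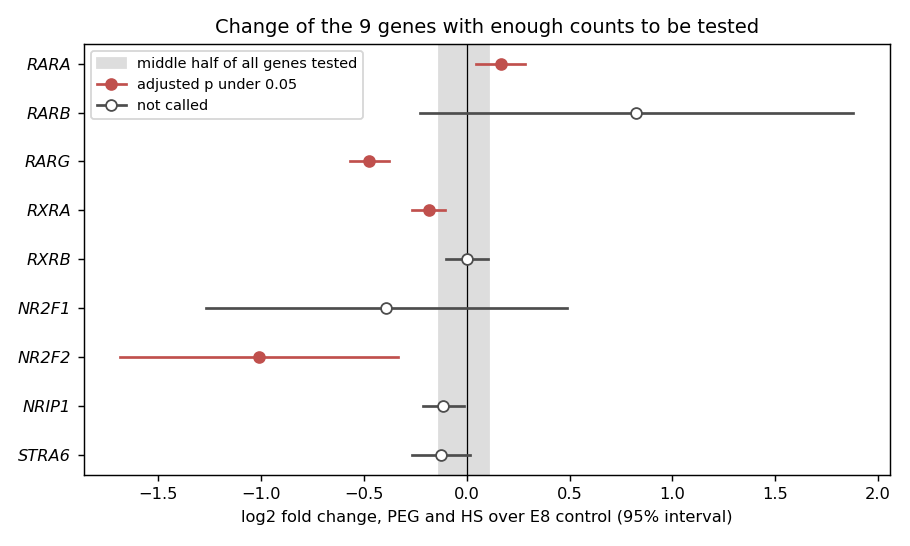
Log2 fold change of PEG and HS over E8 control (horizontal axis) for the 9 genes tested, with 95% intervals as lines, filled red points for genes with an adjusted p under 0.05 and open points for the others; the grey band spans the quartiles of all genes tested. RARG at −0.47 and NR2F2 at −1.01 lie outside the band, NR2F2 with the wider interval. RXRA at −0.18 and RARA at 0.16 lie just outside it. RARB at 0.83 and NR2F1 at −0.39 also lie outside but were not called, and RXRB lies at 0.

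The RXRs are the common partners of the RARs, and those tested changed less than RARG did. RXRA changed about as much as RARA (0.16 on the log2 scale), in the other direction. RXRA (ENSG00000186350, chr9:134317098-134440585, plus strand) had 54.6, 57.1 and 53.5 CPM in PEG and HS, against 61.1, 64.3 and 62.1 CPM in E8 control. Each PEG and HS library was under each E8 control library. The means were 55.1 ± 1.84 and 62.5 ± 1.63 CPM (SD, n = 3 each), and the log2 fold change was −0.18 (SE 0.037, 95% interval −0.26 to −0.10, adjusted p = 0.0019 in edgeR's test). The call held in 15 of 16 alternatives and was lost when the change was tested against 1.2-fold.

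RXRB (ENSG00000204231, chr6:33193588-33200665, minus strand) had 30.5, 29.3 and 30.2 CPM in PEG and HS, against 30.4, 31.1 and 28.7 CPM in E8 control. The PEG and HS libraries lay within the range of E8 control. Its log2 fold change had a 95% interval of −0.10 to 0.10, that is from 0.932-fold to 1.07-fold (adjusted p = 0.998 in edgeR's test). RXRB overlaps SLC39A7 on the opposite strand by 361 bases of gene body, so the same limit holds. RXRG (ENSG00000143171, chr1:165400922-165445355, minus strand), known from muscle and brain, had 0, 1 and 1 counts in PEG and HS, against 5, 2 and 0 counts in E8 control. Its total of 9 counts was under the filter, and the media overlapped, with 1 library at 0 in each.

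Because the exons of these genes differ in length, the make-up of each receptor family was computed per length, as the share of each gene in the summed CPM per kb of joined exons. RARA took 38.9%, 36.9% and 36.2% of the RAR level in PEG and HS, against 28.04%, 27.6% and 27.5% in E8 control. RARG took 60.9%, 62.9% and 63.4% in PEG and HS, against 71.9%, 72.3% and 72.3% in E8 control. RARG was thus the main RAR in all 6 libraries, and the media did not overlap in the share of either gene. The RARA share was 9.61 percentage points higher in PEG and HS (37.3 ± 1.38% against 27.7 ± 0.282%, SD, n = 3 each, exact permutation test, two-sided, p = 0.1). With 3 libraries against 3, an exact permutation test cannot give a p below 0.1. RARB made up 0.251 ± 0.0783% of the RAR level in PEG and HS, against 0.115 ± 0.0601% in E8 control (SD, n = 3 each, exact permutation p = 0.1), with no overlap of the libraries although its CPM values overlapped. The summed RAR level was 14.0 ± 0.525 CPM per kb in PEG and HS, against 16.9 ± 0.762 CPM per kb in E8 control (SD, n = 3 each, exact permutation p = 0.1). The 3 shares of a family add up to 100%, so they do not vary independently.

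Within the RXRs the shift was smaller. RXRA took 36.6%, 38.6% and 36.4% in PEG and HS, against 39.2%, 39.9% and 41.1% in E8 control, with no overlap. Its share was 37.2 ± 1.22% against 40.1 ± 0.995% (SD, n = 3 each), a difference of −2.91 percentage points (exact permutation p = 0.1). RXRB took the greater share in both media, 62.8 ± 1.25% and 59.7 ± 0.745% (SD, n = 3 each). That order depends on the length used, since RXRA has 12077 bases of joined exons but a canonical transcript of 5537 bases. Per canonical transcript, RXRA was above RXRB in E8 control, at 11.3 against 10.4 CPM per kb, and their libraries overlapped in PEG and HS. The summed RXR level was 12.3 ± 0.0813 CPM per kb in PEG and HS, against 12.9 ± 0.424 CPM per kb in E8 control (SD, n = 3 each, exact permutation p = 0.1).

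**Figure D3:**
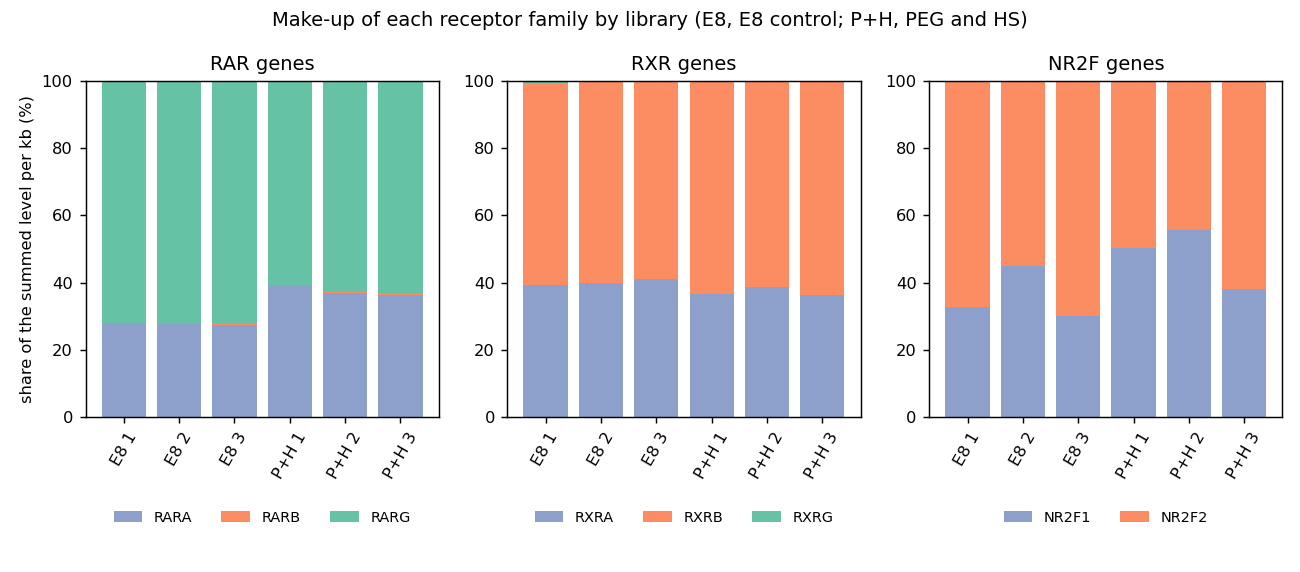
Share (%) of each gene in the summed level per kb of its family, 1 stacked bar for each library (E8, E8 control; P+H, PEG and HS). The RARA part of the bars is 36.2% to 38.9% in PEG and HS, against 27.5% to 28.04% in E8 control, while the NR2F bars of the media overlap.

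NR2F2 (COUP-TFII, ENSG00000185551, chr15:96325938-96340263, plus strand), an orphan receptor of mesoderm and of the developing forebrain, was scarce. Its counts were 16, 20 and 36 in PEG and HS, against 55, 49 and 38 in E8 control, or 0.474, 0.708 and 1.06 CPM against 2.04, 1.51 and 1.05 CPM. The highest PEG and HS library met the lowest E8 control library, so the media overlapped. NR2F2 fell by 1.01 on the log2 scale (SE 0.32, 95% interval −1.68 to −0.34, adjusted p = 0.0288 in edgeR's test). The 72 counts of PEG and HS together gave 0.751 CPM (exact Poisson 95% interval 0.588 to 0.946, counting error only), and the 142 counts of E8 control gave 1.49 CPM (1.25 to 1.75). The call was lost against a 1.2-fold change (adjusted p = 0.15) and without PEG and HS replicate 1 (0.129), PEG and HS replicate 2 (0.0743), E8 control replicate 1 (0.138) or E8 control replicate 2 (0.0659), each in a fit across all genes, and the log2 fold change then ran from −1.37 to −0.76 over the 6 fits that leave out a library. The neuroectoderm markers were lower in the same libraries, as given above. The 7 markers of primitive streak and mesoderm summed to 7.98 to 9.46 CPM in PEG and HS, against 9.88 to 11.2 CPM in E8 control. Of them 2 were called lower and 0 higher (28.6%, against 25.3% of all genes tested). TBX6 and PDGFRA made up most of that sum. MIXL1 went the other way without being called, with 62 counts in each PEG and HS library, against 31, 45 and 62 in E8 control. The part of these markers in the result was not tested.

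NR2F1 (COUP-TFI, ENSG00000175745, chr5:93583222-93594611, plus strand), the close relative of NR2F2 in neural cells, had 11, 17 and 15 counts in PEG and HS, against 18, 27 and 11 counts in E8 control. The ranges of 0.326 to 0.602 CPM and 0.305 to 0.831 CPM overlapped. The log2 fold change was −0.39 (SE 0.41, 95% interval −1.27 to 0.49, adjusted p = 0.543 in edgeR's test), so a decrease of the size seen in NR2F2 lies within its interval. NR2F2 took 51.9 ± 9.01% of the summed level per kb of the pair in PEG and HS, against 64.2 ± 7.96% in E8 control (SD, n = 3 each, exact permutation p = 0.2, libraries overlapping). Both gene bodies overlap antisense genes, NR2F1-AS1 by 2428 and NR2F2-AS1 by 1424 bases.

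NRIP1 (RIP140, ENSG00000180530, chr21:14961235-15065936, minus strand), a corepressor that binds RARs and other receptors with their ligands and is itself inducible by retinoic acid, had 28.4, 27.2 and 26.4 CPM in PEG and HS, against 29.9, 29.6 and 29.4 CPM in E8 control. The media did not overlap, yet the difference did not pass the test. The log2 fold change was −0.12 (SE 0.047, 95% interval −0.21 to −0.015, adjusted p = 0.0873 in edgeR's test).

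STRA6 (ENSG00000137868, chr15:74179466-74212267, minus strand), the membrane receptor that takes up retinol from its serum binding protein, had 12.9, 13.4 and 13.9 CPM in PEG and HS, against 15.6, 14.5 and 13.9 CPM in E8 control. The highest PEG and HS library and the lowest E8 control library were level. The log2 fold change was −0.12 (SE 0.065, 95% interval −0.26 to 0.015, adjusted p = 0.19 in edgeR's test). STRA6 overlaps CCDC33 on the opposite strand by 9563 bases of gene body. Counting was little affected by near-identical copies in the group, since at most 3.76% of the 31-base words in the transcripts of any of them (RARB) occurred in transcripts of another gene.

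Ordered by CPM per kb of joined exons, E8 control ran from RARG (12.2) through RXRB (7.71), RXRA (5.17), RARA (4.68), NRIP1 (3.49) and STRA6 (1.91) to NR2F2 (0.237), NR2F1 (0.137), RXRG (0.0306) and RARB (0.0191). In PEG and HS the order was RARG (8.75), RXRB (7.70), RARA (5.23), RXRA (4.56), NRIP1 (3.22), STRA6 (1.75), NR2F2 (0.116), NR2F1 (0.104), RARB (0.0351) and RXRG (0.00804). RARA and RXRA thus exchanged places between the media, each time without overlap of their libraries, although RXRA was above RARA in both media per canonical transcript. Per canonical transcript STRA6 was also above NRIP1, at 5.41 against 3.82 CPM per kb in E8 control and 4.95 against 3.53 in PEG and HS. RARB was above RXRG in E8 control by that length, with overlapping libraries. By joined exons, neighbours whose libraries overlapped were NR2F2 and NR2F1 in both media and RXRG and RARB in E8 control. Among 48 nuclear receptor genes RARG ranked 3 in E8 control and 4 in PEG and HS, and RXRB ranked 5 in both. Per canonical transcript RARG ranked 3 in both media, and RXRB ranked 7 in E8 control and 6 in PEG and HS. The first places by joined exons were held by NR6A1 (germ cell nuclear factor), at 48.1 CPM per kb in E8 control and 56.1 in PEG and HS, and NR2F6, a relative of NR2F1 and NR2F2, at 48.1 and 52.5 CPM per kb. ESRRA, an estrogen-related receptor, lay between RARG and RXRB in E8 control at 8.83 CPM per kb and above RARG in PEG and HS at 9.55 CPM per kb.

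**Figure D4:**
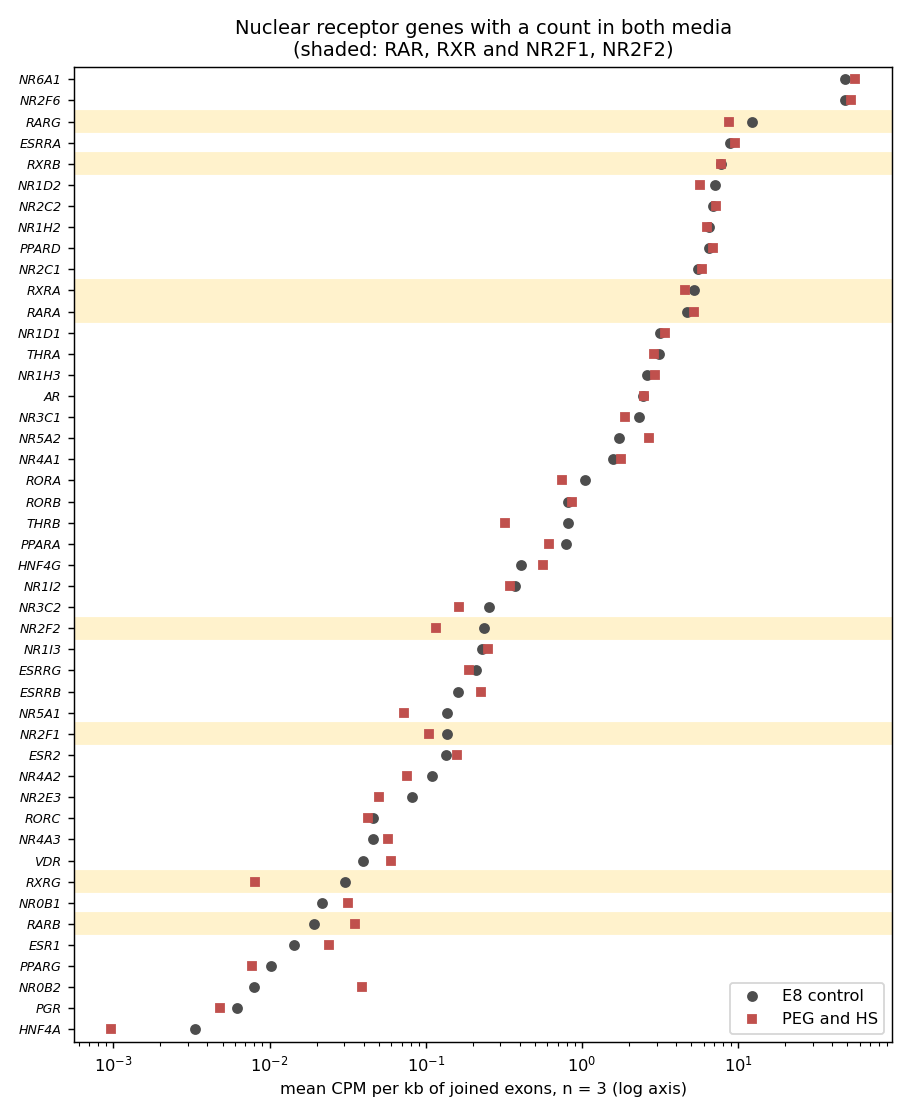
Mean level per kb of joined exons (log axis, n = 3) of the 46 nuclear receptor genes with a count in both media, in E8 control (circles) and PEG and HS (squares), ordered by E8 control, with the RAR, RXR, NR2F1 and NR2F2 rows shaded. RARG stands near the top, at 12.2 and 8.75 CPM per kb, and RARB and RXRG stand near the bottom.

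The other 40 nuclear receptors served as the nearest comparison. Of the 36 tested, 3 were called higher and 5 lower (22.2%, against 25.3% of all genes tested), with a median log2 fold change of 0.073. NR5A2 (LRH-1, a receptor that can drive POU5F1) had 21.1, 20.3 and 19.3 CPM in PEG and HS, against 13.4, 11.97 and 13.4 CPM in E8 control, and it rose by 0.65 on the log2 scale (SE 0.064, adjusted p = 2.17e-06 in edgeR's test). NR6A1, a repressor known to be induced in differentiating pluripotent cells, rose by 0.22 (adjusted p = 0.000233, edgeR). NR2F6 was called higher as well, by 0.13 (adjusted p = 0.00383, edgeR), whereas its relatives NR2F2 and NR2F1 stood at −1.01 and −0.39. RORA, an orphan receptor of the cerebellum and immune cells, fell by 0.49 (adjusted p = 0.000125, edgeR). NR6A1, NR2F6 and the other receptors called higher were each higher in all 3 PEG and HS libraries than in all 3 E8 control libraries.

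Of these 40 receptors, 13 pair with a RXR, and 12 of those were tested. Of the 12, 2 were called, both lower (16.7%, against 25.3% of all genes tested), with a median log2 fold change of −0.076. THRB, a thyroid hormone receptor, had 3.59, 3.47 and 3.55 CPM in PEG and HS, against 8.34, 8.34 and 10.0 CPM in E8 control. It fell 2.52-fold (log2 fold change −1.33, SE 0.10, adjusted p = 1.11e-07 in edgeR's test), the largest change among these partners that passed. PPARA, a fatty acid receptor, fell by 0.37 on the log2 scale (8.11 ± 0.454 against 10.4 ± 0.460 CPM, SD, n = 3 each, adjusted p = 0.00202, edgeR).

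All 31 corepressors and coactivators listed, which receptors recruit to their targets, were tested, and 29 of them remained at a minimum of 1 CPM in 3 libraries. Of the 31, 4 were called higher and 10 lower (45.2%, against 25.3% of all genes tested), with a median log2 fold change of −0.027. Under the minimum of 1 CPM in 3 libraries, 14 of the 29 were called, against 4257 of 13605 genes tested. TRIM24, a cofactor of RARs, had 230, 232 and 238 CPM in PEG and HS, against 330, 338 and 347 CPM in E8 control, with no overlap, and it fell 1.45-fold (−0.54 on the log2 scale, SE 0.028, adjusted p = 1.57e-09 in edgeR's test). BCL11A and BCL11B, zinc finger partners of the NR2F receptors, went in opposite directions. BCL11A fell by 0.28 on the log2 scale (33.3 ± 0.915 against 40.4 ± 1.29 CPM, SD, n = 3 each, adjusted p = 0.000181, edgeR), and BCL11B rose by 0.40 (11.9 ± 1.16 against 9.11 ± 0.756 CPM, SD, n = 3 each, adjusted p = 0.00312, edgeR). TBL1XR1, a subunit of the NCOR and SMRT corepressor complexes, rose by 0.14 (114 ± 2.76 against 104 ± 5.08 CPM, SD, n = 3 each, adjusted p = 0.0102, edgeR).

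**Figure D5:**
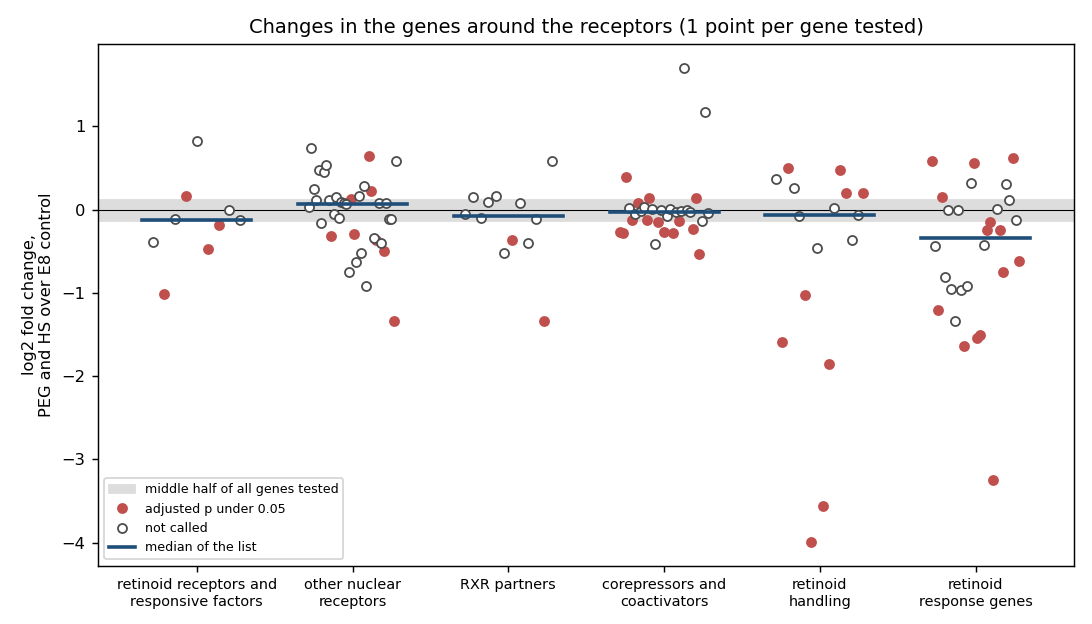
Log2 fold change of PEG and HS over E8 control (vertical axis) for each gene tested in 6 lists, with filled red points for an adjusted p under 0.05, open points for the others, a blue line at the median of each list and a grey band between the quartiles of all genes tested; the RXR partners also appear among the other nuclear receptors. The retinoic acid hydroxylases CYP26A1 and CYP26C1 are the lowest points among the genes that handle retinoids, at −3.99 and −3.56, and the medians lie between −0.34 and 0.073.

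Genes that make, bind and break down retinoids included CYP26A1, which had the largest decrease in the lists around the receptors. The authors had reported lower CYP26A1, CYP26C1, DHRS3 and CRABP2 with the additives. This list was chosen with earlier results of these data known, so its share called is not independent of them. Of 17 listed, 16 were tested, and DHRS9 had no count. Of the 16, 4 were called higher and 5 lower (56.2%, against 25.3% of all genes tested), with a median log2 fold change of −0.071. CYP26A1, the hydroxylase that clears retinoic acid, had 1.19, 1.80 and 1.42 CPM in PEG and HS, against 23.1, 23.5 and 22.9 CPM in E8 control. It fell 15.9-fold (log2 fold change −3.99, SE 0.099, adjusted p = 4.33e-13 in edgeR's test). RARB, which holds the same kind of repeat at 1 of its 4 windows, as shown above, stood at 0.83 on the log2 scale without passing the test. CYP26C1, a related hydroxylase, fell by 3.56 (0.140 ± 0.0645 against 1.65 ± 0.181 CPM, SD, n = 3 each, adjusted p = 1.79e-06, edgeR). LRAT, which stores retinol as esters, had 292, 283 and 282 CPM in PEG and HS, against 209, 195 and 214 CPM in E8 control, and it rose 1.39-fold (adjusted p = 4.37e-08, edgeR). ALDH1A3, an enzyme that makes retinoic acid, rose 1.42-fold from a low level (5.50 ± 0.730 against 3.85 ± 0.517 CPM, SD, n = 3 each, adjusted p = 0.0098, edgeR). The scarce ALDH1A2, of the same family, went the other way, with 6, 12 and 7 counts in PEG and HS, against 15, 26 and 37 in E8 control. DHRS3 (145, 121 and 122 counts against 373, 466 and 572) and CRABP2 (1697, 1321 and 1820 counts against 2684, 3489 and 3665) were lower in PEG and HS too.

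Genes known to respond to retinoic acid were also listed, 32 in all. Of the 28 tested, 4 were called higher and 10 lower (50%, against 25.3% of all genes tested). Their median log2 fold change was −0.34, against 0.0031 over all genes. At a minimum of 1 CPM in 3 libraries 14 of them remained, with 4 called higher and 8 lower, against 4257 called of 13605 genes tested. The median of the 28 thus rests partly on genes with few counts. MEIS2, a homeodomain partner of HOX proteins, fell 2.84-fold (1.03 ± 0.163 against 2.94 ± 0.344 CPM, SD, n = 3 each, adjusted p = 2.73e-05, edgeR). ELF3, an epithelial ETS factor, fell 2.30-fold, from 10.0, 9.91 and 10.1 CPM in E8 control to 4.63, 4.00 and 4.37 CPM in PEG and HS (adjusted p = 4.41e-08, edgeR). TSHZ1, a zinc finger gene of the trunk, rose 1.54-fold (adjusted p = 0.001, edgeR), and BHLHE40, a repressor of the circadian clock also known as STRA13, rose by 0.58 on the log2 scale (adjusted p = 0.000509, edgeR). Markers of other lineages moved in the same comparison. Besides the 7 neuroectoderm genes, the trophectoderm and amnion list summed to 16.99 to 18.9 CPM in PEG and HS, against 26.7 to 28.5 CPM in E8 control. Of these, 2 of 6 were called lower (33.3%, against 25.3% of all genes tested). TFAP2C made up most of that sum (369, 311 and 406 counts in PEG and HS, against 484, 610 and 660 in E8 control). GABRP went the other way without being called (75, 68 and 76 counts against 39, 60 and 64). Endoderm markers summed to 3.08 to 3.37 CPM against 4.05 to 4.89 CPM, with 0 of 4 called by edgeR, DESeq2 or limma-voom and 2 of 4 at an unadjusted p under 0.05 in each, and neural crest markers to 54.4 to 58.5 CPM against 51.0 to 54.0 CPM, with 1 called higher and 2 lower of 6. FOXD3, the one called higher, made up most of the neural crest sum (51.9 against 41.6 CPM), whereas TFAP2A fell from 6.00 to 0.603 CPM and the median log2 fold change of the 6 was −0.63, with 5 of 6 below 0. Their part in the values of the receptor, cofactor and response genes was not tested.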

How the data were processed

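Bulk polyadenylated RNA of the 6 libraries was sequenced with a stranded kit. The authors trimmed the reads, mapped them to GRCh38 with STAR and deposited raw read counts per gene, without normalization. The submitters' processing notes name Trim Galore 0.6.7 and STAR 2.6.1. The counting tool and its strand setting are not given in the sources used here. GENCODE 44 gave symbols, coordinates and exon lengths for 19916 of 19977 identifiers, 1799 genes had no count, 0 rows lacked a gene and 0 columns belonged to other samples.

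Genes with at least 10 counts in total were tested with edgeR 4.0.16 in R 4.3.3 (TMM, factors 0.994 to 1.006; glmQLFit, glmQLFTest, medium as the only term), and p-values were adjusted by Benjamini-Hochberg over 16505 genes. SE is the log2 fold change, without its sign, divided by the root of the F statistic. The common biological coefficient of variation was 3.12%. Between replicates of a medium, chi-square over its degrees of freedom was 2.61 to 3.59, above sampling noise, and none was merged. CPM is relative to TMM-scaled library size. Intervals from counts and the 3-count limit cover counting error only. Family shares were compared with exact permutation tests (scipy 1.17.1).

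Named genes are the 10 retinoid genes and, of each other list, up to 2 genes per direction with the largest change among called genes with at least 1 CPM in every library of the higher medium. NR2F6, ESRRA, NANOG, SOX2, FOXD3, TFAP2A, SOX17, CDX2, GATA4, TFAP2C, GABRP, MIXL1, TBX6, PDGFRA, ALDH1A2, DHRS3 and CRABP2 were named after their values were seen. The members and lists were chosen with earlier results of these data known. On counts simulated for this comparison (16505 genes, 200 changed, dispersions from the trend), edgeR recovered 97.2% of 2-fold and 82.6% of 1.41-fold changes, and 5.05% of calls were false. With gene-wise dispersions these were 96.2%, 81.4% and 10.3%. The 200 changed genes were drawn from genes with a mean above 1 CPM and were far fewer than the 4173 called in the data. Recovery was thus not measured for scarcer genes such as RARB, RXRG and NR2F1. Alternatives were DESeq2 1.42.0, limma-voom (limma 3.58.1), other normalizations, filters, a 1.2-fold threshold, a replicate block, leaving out each library, and, for the family shares, raw counts and transcript length. Promoters were RefSeq windows on GRCh38.p14. Protein sequences were not analysed here.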

Additional observations from a re-analysis of the deposited data

How the results depend on the processing

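Over 16 alternatives to the edgeR fit, RARG kept its direction and call, and RARB, NR2F1, NRIP1 and STRA6 kept their direction and stayed without a call wherever they could be tested. Tested against a 1.2-fold change, 868 genes were called (215 higher, 653 lower), with 1 of the retinoid genes (RARG). They also held 3 of the other nuclear receptors, 1 RXR partner, 1 cofactor, 6 genes that handle retinoids and 8 retinoid response genes. The balance of all calls moved with scaling, from 2016 higher and 2157 lower to 2232 and 2027 with library size alone and 1795 and 2354 with upper-quartile scaling. The number of retinoid genes called was 2 without PEG and HS replicate 1, PEG and HS replicate 2 or E8 control replicate 2, and lay between 2 and 4 over the fits that leave out a library, as RARA and NR2F2 lost their calls. The log2 fold change of RXRB, near 0, turned negative with DESeq2 (−0.0017), RLE (−0.0012) and upper-quartile scaling (−0.010), with no filter (−0.00083), filterByExpr (−0.0059) or at least 1 CPM in 3 libraries (−0.0074), and lay between −0.035 and 0.026 when a library was left out. The cause was not tested. With a replicate block 4444 genes were called (2187 higher, 2257 lower) and 4 of the retinoid genes, and RARG stood at −0.47. The replicate numbers are not shown to pair the libraries, since deviations of same-numbered libraries had r of −0.015, 0.028 and 0.060 over 13557 genes. The family shares kept their direction with raw counts, without each library and with canonical transcript length, an alternative chosen after seeing the data. Depth limits RARB, RXRG, NR2F1 and NR2F2, and the exact test over 6 libraries cannot go below p = 0.1.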
